A study of Yarrowia lipolytica with 4 samples.

Results

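Genes for the breakdown of branched-chain and other amino acids were compared between strains F19 and WLH of the oleaginous yeast Yarrowia lipolytica. The genes were taken from the deposited annotation as those with the pathway term for valine, leucine and isoleucine degradation, lysine degradation, or tryptophan, phenylalanine or tyrosine metabolism. Genes that also carried the terms for amino acid biosynthesis, fatty acid degradation, the peroxisome or the citrate cycle were left out, as were the enzymes of tyrosine ring breakdown (K00457, K00451 and K01555) and genes described only as aldehyde or alcohol dehydrogenase. Of the 6797 genes in the table, 73 held 1 of the 5 terms and 39 met the whole rule. These 39 genes lie on 30 scaffolds and carry 33 ortholog numbers (KO).

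Both strains derive from the laboratory strain PO1f and were grown for 48 h at 30 °C in synthetic medium without leucine that contained 2.4 mM furfural, a toxic aldehyde of plant biomass hydrolysates. F19 came from a CRISPR interference library, in which guide RNAs direct an inactive Cas9 to repress genes, screened for strains that tolerate furfural and acetic acid, and WLH served as its control. Poly(A) RNA was sequenced in 2 libraries per strain, with 18244313 to 24129664 counts in genes per library. Which gene is repressed in F19 was not known from the labels, and cultures without furfural were not analysed here. Separate cultures for the libraries of a strain are not stated in the labels; all p-values therefore rest on the spread between libraries, and that spread may be technical. The gene BKA90DRAFT_130772 has the ortholog number of 3-isopropylmalate dehydrogenase (K00052), the leucine synthesis enzyme encoded by the LEU2 marker. It stood at 26.2 CPM (library-size normalised counts, with TMM scaling factors) in F19 replicate 1 and at 239 in F19 replicate 2, against 227 and 204 in WLH, so F19 replicate 1 stood apart there. The part of this difference in the results was not tested. For the members and for all genes, the median log2 fold change without that library is given beside the counts. The related lists were not counted without it.

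Leucine, valine and isoleucine are first transaminated to branched-chain keto acids. The mitochondrial branched-chain keto acid dehydrogenase complex then decarboxylates these acids in the committed step and passes on acyl-CoA esters, which acyl-CoA dehydrogenases and later enzymes break down to acetyl-CoA, acetoacetate and propionyl-CoA. Tryptophan is opened by indoleamine dioxygenase and passed along the kynurenine pathway, which in yeasts ends in quinolinate and feeds the synthesis of NAD. Phenylalanine, tyrosine and tryptophan can also lose their amino group to aminotransferases and become aromatic alcohols or acids through keto acid decarboxylases and dehydrogenases.

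The comparison asked which of these genes differed between the strain from the tolerance screen and its control under furfural. Among the 39 genes, those for the committed step of branched-chain breakdown were the most reduced. The 3 subunits specific to the keto acid dehydrogenase were 3.79-fold to 5.81-fold lower in F19. In bulk RNA, fewer cells with a transcript and less of it per cell cannot be told apart. Isovaleryl-CoA dehydrogenase and a methylcrotonyl-CoA carboxylase subunit of the leucine branch were lower too, by smaller amounts. HMG-CoA lyase, which ends that branch, did not pass. Also lower by smaller amounts were 3 of the 4 genes grouped as the kynurenine pathway, an indolepyruvate decarboxylase and lysine acetyltransferase. A copper amine oxidase, an H3 lysine-4 methyltransferase, trimethyllysine dioxygenase and indoleamine 2,3-dioxygenase were higher. Of the 39 genes, 38 had enough counts to be tested. In edgeR's quasi-likelihood test, 21 of the 38 passed an adjusted p of 0.05, or 55.3% of them, against 51.4% of all 6414 genes tested. The number of calls was therefore near that of all genes, and the direction was uneven. In F19 17 were lower, 44.7% of those tested against 25.5% of all genes, and 4 were higher, 10.5% against 25.9%. At least 2-fold changes were found for 10 lower genes (9.18% of all genes tested were that much lower) and 3 higher genes (10.4% of all genes). The median log2 fold change of the tested members was -0.43, beside 0.01 for all genes. The libraries of the strains did not overlap for 22 members below WLH (39.7% of all genes) and for 12 above it (39.9%), and overlapped for 4. With library totals in place of TMM factors, 12 members (31.6%) were called higher and 15 (39.5%) lower, beside 37.7% and 16.6% of all genes, because the median of all genes then moved to 0.24 and that of the members to -0.20. Without F19 replicate 1, the median log2 fold change was -0.46 for the members and -0.01 for all genes.

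**Figure D1:**
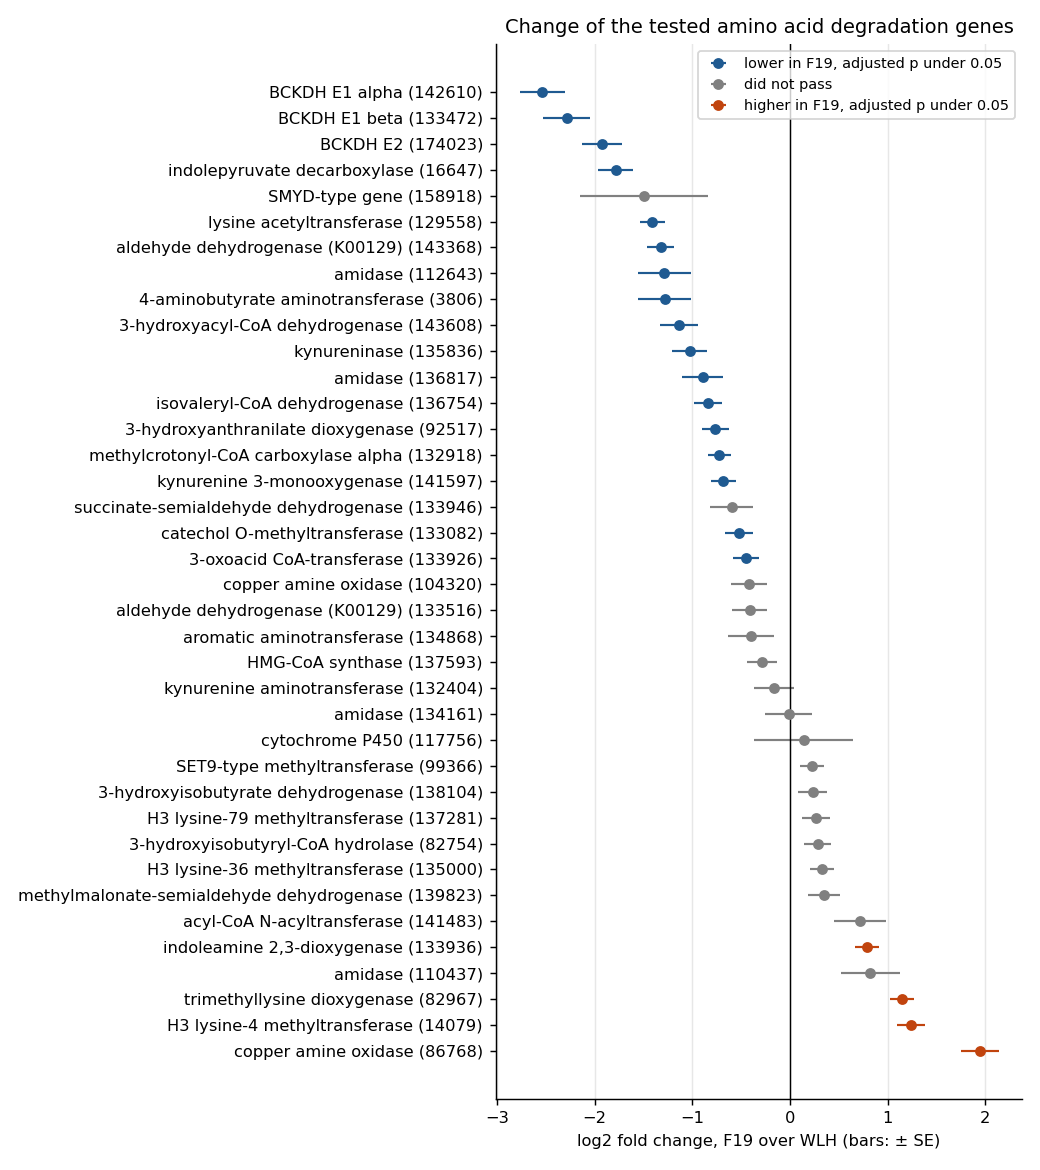
Log2 fold change, F19 over WLH, of the 38 tested genes, ordered from the most reduced to the most raised; points are edgeR estimates, bars are standard errors, and numbers in brackets are the ends of the gene identifiers. The keto acid dehydrogenase subunits lie lowest, from -2.54 to -1.92, and a copper amine oxidase lies highest, at 1.94.

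The branched-chain keto acid dehydrogenase showed the largest falls. BKA90DRAFT_142610, with the ortholog number of the E1 alpha subunit (K00166; scaffold ML756066.1, 62898 to 64472, plus strand), measured 22.2 and 28.6 CPM in F19 replicates 1 and 2 and 118 and 178 in the WLH replicates. Every F19 value was far below every WLH value, a log2 fold change of -2.54 ± 0.23 (SE; edgeR, adjusted p = 0.00055). The E1 beta subunit, BKA90DRAFT_133472 (K00167; ML755980.1, 258254 to 259832, plus strand), which forms the decarboxylating part of the complex together with E1 alpha, had 24.5 and 27.4 CPM in F19 versus 96.0 and 158 in WLH. Its log2 fold change was -2.29 ± 0.24 (SE; edgeR, adjusted p = 0.000737). BKA90DRAFT_174023, the E2 acyltransferase core (K09699; ML755999.1, 36995 to 38610, minus strand), had 19.9 and 22.9 CPM against 66.7 and 96.0 (log2 fold change -1.92 ± 0.20, SE; edgeR, adjusted p = 0.000737). The 3 genes lie on different scaffolds, and in each of them WLH replicate 2 was higher than WLH replicate 1. All 3 calls held in the 12 alternatives, with log2 fold changes between -2.80 and -1.61. The E3 subunit, BKA90DRAFT_138370 (K00382), is shared with other keto acid dehydrogenases and was left out by the rule. It was also lower in F19, at 465 and 591 CPM against 1399 and 1468 (log2 fold change -1.44; edgeR, adjusted p = 0.00107).

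Further down the leucine branch the falls were smaller. Isovaleryl-CoA dehydrogenase, BKA90DRAFT_136754 (K00253; ML755997.1, 21736 to 23203, plus strand), which oxidises the leucine-derived acyl-CoA, had 37.6 and 39.0 CPM in F19 and 61.3 and 75.9 in WLH. The strains did not overlap, and the fall was 1.79-fold (edgeR, adjusted p = 0.00361). The alpha subunit of methylcrotonyl-CoA carboxylase, BKA90DRAFT_132918 (K01968), the biotin enzyme of the next step, had 61.6 and 63.8 CPM against 102 and 105. The spread within each strain was small beside this 1.65-fold fall (edgeR, adjusted p = 0.00252). The electron acceptors of acyl-CoA dehydrogenases, a related list, were all lower: 3 of 3 genes passed, where 25.5% of all genes tested were lower. The electron transfer flavoprotein dehydrogenase BKA90DRAFT_142874 (K00311), which hands these electrons to ubiquinone, stood at 84.7 and 66.8 CPM in F19 versus 206 and 207 in WLH. The other acceptor genes, BKA90DRAFT_136425 and BKA90DRAFT_141681, had log2 fold changes of -0.74 and -0.56.

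Genes of ketone bodies and of the valine branch showed smaller differences. The 3-oxoacid CoA-transferase BKA90DRAFT_133926 (K01027), which activates acetoacetate, had 65.7 and 67.4 CPM in F19 versus 83.4 and 98.7 in WLH, a 1.37-fold fall (edgeR, adjusted p = 0.0248). That call was lost with library totals (adjusted p = 0.207), in limma on FPKM (0.229) and without F19 replicate 1 (0.0714), F19 replicate 2 (0.0655) or WLH replicate 2 (0.166). HMG-CoA synthase, BKA90DRAFT_137593 (K01641), which also starts the mevalonate route to sterols, had 191 and 189 CPM against 202 and 262 and did not pass (log2 fold change -0.29 ± 0.16, SE; edgeR, adjusted p = 0.166). HMG-CoA lyase, BKA90DRAFT_135858 (K01640), which ends leucine breakdown and was left out by the rule, did not pass either, at 74.7 and 99.1 CPM against 91.8 and 156. In the valine branch, 3-hydroxyisobutyryl-CoA hydrolase, BKA90DRAFT_82754 (K05605), had 267 and 306 CPM in F19 versus 250 and 221 in WLH. 3-Hydroxyisobutyrate dehydrogenase, BKA90DRAFT_138104 (K00020), had 33.7 and 34.1 against 31.1 and 26.5, and methylmalonate-semialdehyde dehydrogenase, BKA90DRAFT_139823 (K00140), had 159 and 213 against 151 and 142. In these 3 genes the F19 values lay just above the WLH values, with log2 fold changes of 0.28 ± 0.14, 0.23 ± 0.15 and 0.35 ± 0.16 (SE), and none passed in edgeR (adjusted p = 0.137, 0.222 and 0.118). With library totals the same 3 passed as higher (adjusted p = 0.0185, 0.033 and 0.0209), and the last also without F19 replicate 1 (0.0166). Whether the valine branch differed from the dehydrogenase complex was not tested. Of the 11 tested members with the branched-chain term, 7 (63.6%) were lower and 0 higher. Over every gene with that term, 13 of 24 (54.2%) were lower and 3 (12.5%) higher. Of all genes tested, 25.5% were lower and 25.9% higher.

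**Figure D2:**
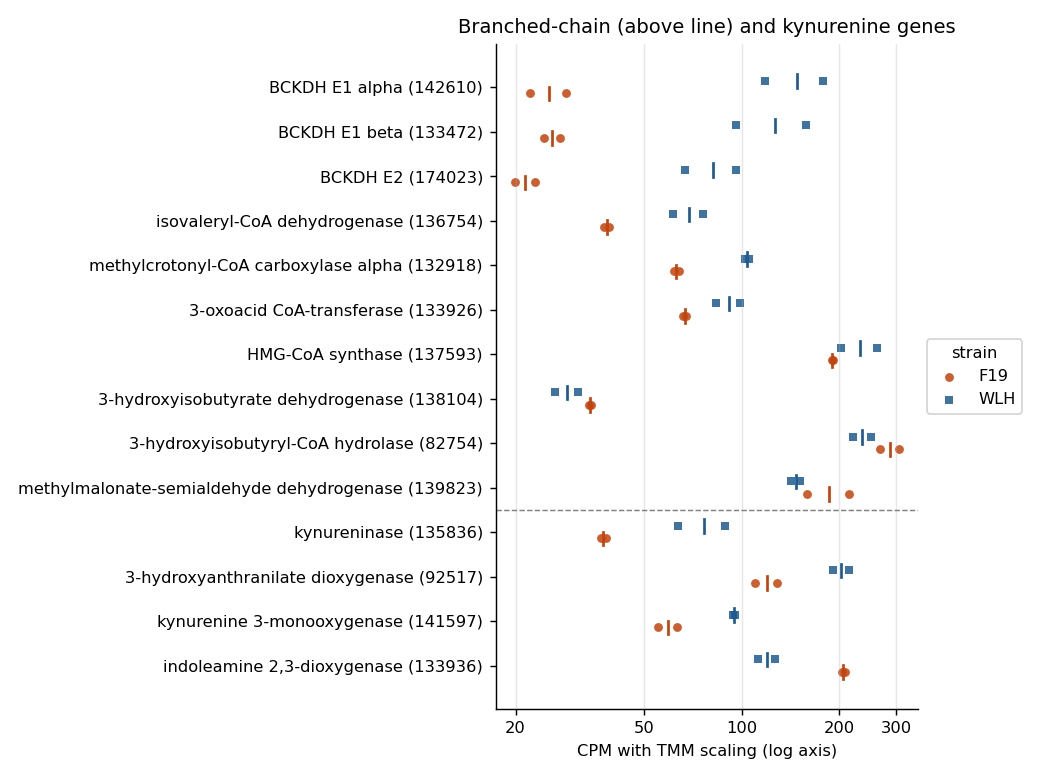
CPM with TMM scaling, on a log axis, in each of the 4 libraries for the branched-chain genes (above the dashed line) and the kynurenine genes (below it); circles are F19, squares are WLH, and ticks are strain means. The dehydrogenase subunits (BCKDH) stand between 19.9 and 28.6 CPM in F19 and between 66.7 and 178 in WLH, while the valine branch genes lie close together.

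Among aminotransferases, BKA90DRAFT_3806 (K13524; ML755987.1, 58186 to 59859, plus strand), the aminotransferase of 4-aminobutyrate and of a valine-derived amino acid, had the rank 2 among the 39 members by mean FPKM, a level per length. It stood at 462.6 and 583 CPM in F19, and at 1608 and 933 in WLH, so the WLH libraries lay far apart but above both F19 libraries. The 2.43-fold fall passed (edgeR, adjusted p = 0.00776) and was lost without WLH replicate 1 (log2 fold change -0.83, adjusted p = 0.0564). Succinate-semialdehyde dehydrogenase, BKA90DRAFT_133946 (K00135), which oxidises the aldehyde left from 4-aminobutyrate, had 147 and 193 CPM against 306 and 207 and did not pass (edgeR, adjusted p = 0.0568). It passed in DESeq2 (adjusted p = 0.0254), without F19 replicate 2 (0.0323) and without WLH replicate 2 (0.0467). The aromatic aminotransferase BKA90DRAFT_134868 (K05821) and the kynurenine aminotransferase BKA90DRAFT_132404 (K14264) overlapped between strains, with log2 fold changes of -0.40 and -0.16 that did not pass. Both passed as lower without F19 replicate 2 (adjusted p = 0.0121 and 0.0413). The branched-chain aminotransferase itself, BKA90DRAFT_136081 (K00826), which works in synthesis as well and was left out by the rule, had 203 and 261 CPM against 225 and 294 and did not pass (edgeR, adjusted p = 0.5).

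The kynurenine pathway split by step, and all 4 members grouped under it passed, beside 51.4% of all genes tested. The kynurenine aminotransferase BKA90DRAFT_132404, which did not pass, was counted above with the aminotransferases. Indoleamine 2,3-dioxygenase, BKA90DRAFT_133936 (K00463; ML755982.1, 161809 to 163675, plus strand), which opens the indole ring of tryptophan, had 204 and 208 CPM in F19 and 126 and 112 in WLH. It was 1.73-fold higher, beyond the spread of either strain (edgeR, adjusted p = 0.00271). The other 3 members, which act at later steps, were lower. Kynurenine 3-monooxygenase, BKA90DRAFT_141597 (K00486), a flavoprotein that hydroxylates kynurenine, had 63.1 and 54.9 CPM against 95.0 and 94.2 (1.60-fold lower; edgeR, adjusted p = 0.00437). Kynureninase, BKA90DRAFT_135836 (K01556; ML755991.1, 48425 to 50027, minus strand), which cleaves the side chain, had 36.7 and 38.0 CPM against 63.3 and 88.9 (2.04-fold lower; edgeR, adjusted p = 0.0036). 3-Hydroxyanthranilate 3,4-dioxygenase, BKA90DRAFT_92517 (K00452; ML755979.1, 113338 to 114386, minus strand), which makes the precursor of quinolinate, had 128.7 and 110 CPM against 214 and 191 (1.70-fold lower; edgeR, adjusted p = 0.00429). The opposite directions of the dioxygenase and the other 3 enzymes were kept in all 12 alternatives, each past the threshold. Kynureninase lies 1 base from a neighbour on the same strand, and the hydroxyanthranilate dioxygenase 3 bases from a gene on the other strand, so reads at these ends may be shared with the neighbours. Of 5 NAD synthesis genes, 1 (20%) was higher, 1 (20%) lower and 3 did not pass. Of all genes tested, 25.9% were higher and 25.5% lower. Quinolinate phosphoribosyltransferase, BKA90DRAFT_163227 (K00767), which joins the kynurenine pathway to NAD, was among the NAD synthesis genes that did not pass, at 202 and 235 CPM against 246 and 233.

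Several further genes with the tryptophan, lysine, phenylalanine or tyrosine term were lower. Indolepyruvate decarboxylase, BKA90DRAFT_16647 (K04103; ML755998.1, 120980 to 123284, minus strand), which acts on the keto acid of tryptophan, stood at 87.8 and 79.8 CPM in F19, and at 244 and 333 in WLH. After the dehydrogenase complex this was the next largest called fall, with a log2 fold change of -1.78 ± 0.18 (SE; edgeR, adjusted p = 0.000685). The lysine acetyltransferase BKA90DRAFT_129558 (K18854; ML756013.1, 40877 to 42055) makes the N6-acetyl-lysine through which Y. lipolytica is known to degrade lysine. It had 80.5 and 83.8 CPM against 204 and 233, a 2.66-fold fall (edgeR, adjusted p = 0.000558). An NAD(P)-dependent aldehyde dehydrogenase, BKA90DRAFT_143368 (K00129), had 18.8 and 17.6 CPM against 44.7 and 46.7, with little spread in either strain (2.51-fold lower; edgeR, adjusted p = 0.000761). The 3-hydroxyacyl-CoA dehydrogenase BKA90DRAFT_143608 (K00074) had 136 and 200 CPM against 377 and 362 (log2 fold change -1.14; edgeR, adjusted p = 0.00339). Catechol O-methyltransferase by its ortholog number, BKA90DRAFT_133082 (K00545), had the highest level per length of all members, a mean of 707 FPKM over the libraries. Its 1.43-fold fall (538 and 563 CPM against 755 and 822; edgeR, adjusted p = 0.0211) was lost with library totals (adjusted p = 0.123), in limma on FPKM (0.108) and without WLH replicate 1 (0.0926) or WLH replicate 2 (0.157).

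Of members that share an ortholog number, some passed and others did not. Copper amine oxidases convert primary amines to aldehydes, ammonia and hydrogen peroxide. BKA90DRAFT_86768 (K00276; ML756027.1, 34229 to 36244) had 428 and 607 CPM in F19 and 133.8 and 135.1 in WLH. It had the largest rise of the members, with every F19 value above 3 times the WLH values (log2 fold change 1.94 ± 0.19, SE; edgeR, adjusted p = 0.000665). The amine oxidase BKA90DRAFT_104320 had 12.1 and 10.7 CPM against 15.7 and 14.8 and did not pass. The last amine oxidase, BKA90DRAFT_159304, had 0.28 and 0 CPM in F19 and 0.181 and 0.533 in WLH and was too low to test. Amidases (K01426) release ammonia from amides. Of 4 such genes, BKA90DRAFT_112643 (4.996 and 4.62 CPM against 14.2 and 9.17) and BKA90DRAFT_136817 (63.2 and 79.2 against 106 and 158) were lower in F19 (edgeR, adjusted p = 0.00747 and 0.0116). These calls were lost without WLH replicate 1 for BKA90DRAFT_112643 (adjusted p = 0.0649) and without WLH replicate 2 for BKA90DRAFT_136817 (0.0806), which also missed in limma on FPKM with no filter (0.0607). BKA90DRAFT_110437 had 4.62 and 7.10 CPM against 3.03 and 3.61 and did not pass (edgeR, adjusted p = 0.0563), though it passed as higher with library totals (0.0224) and without F19 replicate 1 (0.0248). BKA90DRAFT_134161 overlapped between strains, at 105 and 174 CPM versus 156 and 126. Reads shared by near-identical copies cannot be told apart from these counts. The further K00129 gene, BKA90DRAFT_133516, had 228 and 316 CPM against 369 and 355 and did not pass (edgeR, adjusted p = 0.0913), except without F19 replicate 2 (0.00872).

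**Figure D3:**
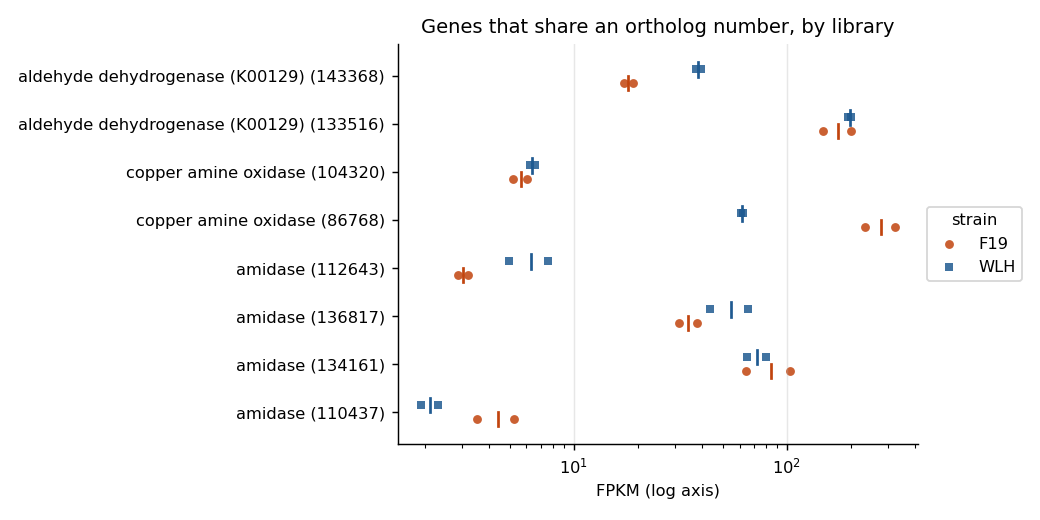
FPKM, on a log axis, in each library for 8 tested genes that share an ortholog number with another member; circles are F19, squares are WLH, and ticks are strain means. Of the amine oxidases the more abundant is far higher in F19, from 61.4 to 277 mean FPKM, while the other, at 5.63 in F19 and 6.39 in WLH, did not pass.

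The lysine degradation term also covers enzymes that modify lysine residues of proteins. By ortholog number and description, 4 members are histone-lysine methyltransferases and 1, BKA90DRAFT_158918 (K11426), belongs to a family of SET-domain proteins. The H3 lysine-4 methyltransferase BKA90DRAFT_14079 (K11422; ML755978.1, 290412 to 294083, minus strand), of a mark found at active promoters, had 52.3 and 61.7 CPM in F19 and 23.8 and 24.5 in WLH. It was 2.36-fold higher (edgeR, adjusted p = 0.000982), and it lies 1 base from a gene on the other strand. The methyltransferases for H3 lysine-36 (BKA90DRAFT_135000), H3 lysine-79 (BKA90DRAFT_137281) and the SET9 type (BKA90DRAFT_99366) had log2 fold changes of 0.33, 0.26 and 0.23, with F19 above WLH in every library, and did not pass. With library totals all 3 passed as higher (adjusted p = 0.011, 0.0231 and 0.0182). BKA90DRAFT_158918 had 1.03 and 0.149 CPM against 1.67 and 1.72 and did not pass, except with the replicate block and without F19 replicate 1. Its log2 fold change ran from -3.46 to -0.71 when 1 library was left out. Trimethyllysine dioxygenase, BKA90DRAFT_82967 (K00474; ML756000.1, 47002 to 48150), starts carnitine synthesis from trimethylated lysine. It had 81.6 and 80.7 CPM in F19 and 38.5 and 34.8 in WLH, a 2.21-fold rise with hardly any spread in F19 (edgeR, adjusted p = 0.000805). Without the 4 histone-lysine methyltransferases, 17 of 34 tested members (50%) were lower and 3 (8.82%) higher, beside 25.5% and 25.9% of all genes. Of the 8 tested members with the lysine term, 2 (25%) were higher, near the 25.9% of all genes, and 1 (12.5%) was lower, beside 25.5%. Over every gene with that term, 5 of 22 (22.7%) were higher and 8 (36.4%) lower.

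By the other terms, 6 of 10 tested members of tryptophan metabolism were lower and 1 higher, 4 of 12 of phenylalanine metabolism were lower and 1 higher, and 2 of 7 of tyrosine metabolism were lower and 1 higher. Beside the 25.5% of all genes that were lower, the lower shares were 60% for tryptophan metabolism and, nearer to all genes, 33.3% for phenylalanine and 28.6% for tyrosine metabolism. A gene can carry several terms. The remaining members did not pass: the cytochrome P450 BKA90DRAFT_117756 (K10437) was near 1 CPM in both strains, and the acyl-CoA N-acyltransferase BKA90DRAFT_141483 (K18852) had 24.9 and 15.2 CPM in F19 versus 13.4 and 10.9 in WLH (edgeR, adjusted p = 0.056). The acyltransferase passed in DESeq2 (adjusted p = 0.0332), with library totals (0.0237) and without F19 replicate 2 (0.00768). Mean levels per length ran from 0.118 to 707 FPKM over the 39 genes, with a median of 44.6. The dehydrogenase subunits stood near that median, at ranks 16, 19 and 28 from the top. Of the 8 tested members whose annotation places them in mitochondria, 6 were lower and 0 higher, and of the other 30, 11 were lower and 4 higher. These are lower shares of 75% and 36.7%, beside 25.5% of all genes, and the difference was not tested. The annotation carries no mitochondrial term for the E2 core BKA90DRAFT_174023 or the methylcrotonyl-CoA carboxylase subunit BKA90DRAFT_132918. Both were lower and count among the other 30. The authors' deposited table of significant genes lists 13 of the 39 genes, 10 lower and 3 higher in F19. All 13 changed at least 2-fold there, so the count is not to be set against the 21 calls at any fold. At 2-fold, edgeR also gave 10 lower and 3 higher members, beside 9.18% and 10.4% of all genes tested. The share of all genes in the authors' table was not counted. E1 alpha has a log2 fold change of -2.53 in it.

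**Figure D4:**
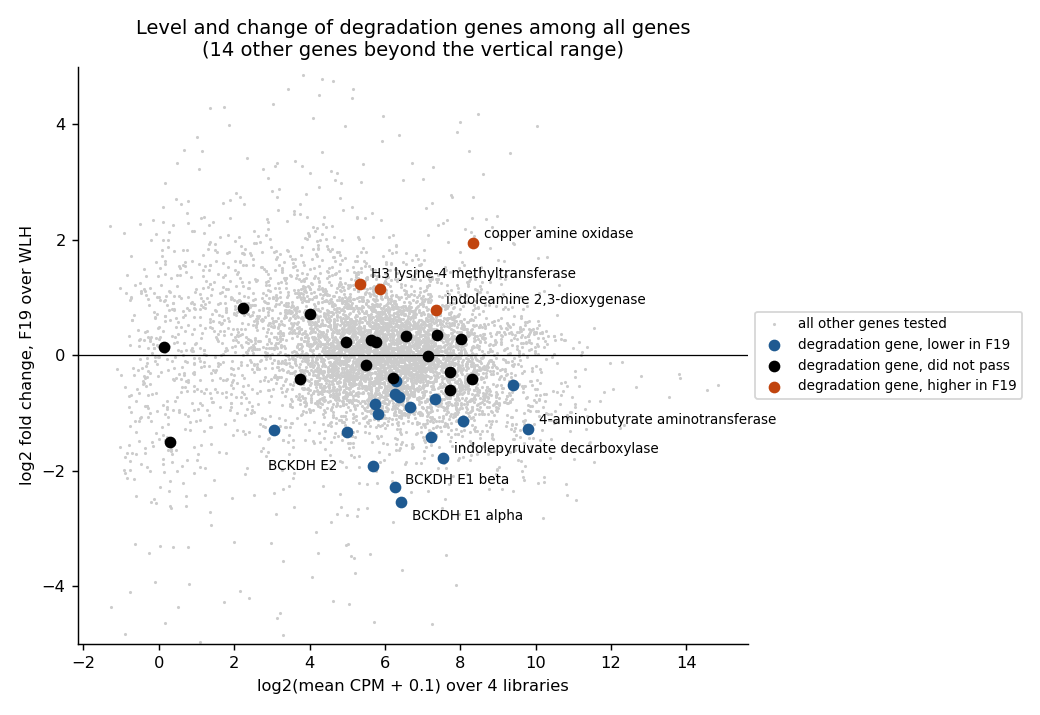
Log2 fold change, F19 over WLH, against log2(mean CPM + 0.1) over the 4 libraries, for all genes tested (grey) and the amino acid degradation genes (blue lower, orange higher, black did not pass); 14 other genes lie beyond the vertical range. Of the called genes, 17 lie below 0 and 4 above it, and the called gene at the lowest level is the amidase BKA90DRAFT_112643.

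Genes next to these pathways were counted from lists by ortholog number or term. Of 9 genes of leucine, isoleucine and valine synthesis, 5 (55.6%) were lower and 0 higher, beside 25.5% and 25.9% of all genes tested. Their median log2 fold change was -0.63. In each of these genes F19 replicate 1 stood below F19 replicate 2, and the list was not counted without F19 replicate 1. Dihydroxy-acid dehydratase, BKA90DRAFT_141192 (K01687), was the most reduced of them, at 122 and 141 CPM in F19 versus 309 and 286 in WLH (edgeR, adjusted p = 0.000986). The list for the methylcitrate cycle, which would receive propionyl-CoA, held 3 genes. BKA90DRAFT_133609 and BKA90DRAFT_133748 share the ortholog number of citrate synthase (K01647), an enzyme of the citrate cycle. The former was lower and the latter did not pass (log2 fold changes of -1.23 and -0.47). The 2-methylcitrate dehydratase BKA90DRAFT_138101 (K01720) had a log2 fold change of 0.02 and did not pass. Of 31 genes with the term for glycine, serine and threonine metabolism, 23 (74.2%) were lower and 2 (6.45%) higher. There, threonine aldolase, BKA90DRAFT_143743 (K01620), and the P and T proteins of the glycine cleavage system, BKA90DRAFT_139887 and BKA90DRAFT_138121, had log2 fold changes of -2.36, -2.16 and -2.06. Arginine and proline metabolism had 12 lower and 4 higher of 25. Histidine metabolism had 4 lower and 3 higher of 15, and beta-alanine metabolism 9 lower and 6 higher of 24. The lower shares were 48% for arginine and proline, 26.7% for histidine and 37.5% for beta-alanine metabolism, beside 25.5% of all genes. The higher shares were 16%, 20% and 25%, beside 25.9%. These terms share genes with each other and with the members. The 3 enzymes of tyrosine ring breakdown, left out by the rule, were all lower, with log2 fold changes of -4.66, -3.48 and -3.44.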

How the data were processed

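RNA was measured in 2 libraries of F19 and 2 of WLH. The tools were HISAT2 2.2.1, HTSeq 0.6.1, cutadapt 1.9.1 and DESeq2, per the submitters' processing notes. Their settings, strand handling and genome build are not stated there, and coordinates are those of the deposited scaffolds. The authors deposited raw counts per gene, exonic lengths and FPKM, counts per length and library total, per the file headers. A second deposited table holds the authors' log2 fold changes and adjusted p-values for significant genes only. The column of WLH replicate 1, spelled with a letter I, was matched by strain and remaining name.

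The 3 features that name no gene held 0.134% to 0.387% of the counts of a library and were left out. Deposited counts of all genes passing filterByExpr (6414) were fitted with edgeR 4.0.16 in R 4.3.3: TMM factors, quasi-likelihood test, strain as the only term, two-sided, Benjamini-Hochberg adjustment over all genes, threshold 0.05. Standard errors (SE) were obtained from the log2 fold change and the F statistic. The biological coefficient of variation was 14.1%. Counts and low levels carry counting error, and reads amplified by PCR are not independent molecules. The tests were checked on simulated data.

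The members and lists were chosen with earlier results of these data known. Genes were named by this rule: all members of the branched-chain and kynurenine steps whatever their values, the 10 largest rises and falls past the threshold with non-overlapping libraries among the others, and up to 3 genes per related list. Other members, HMG-CoA lyase, the branched-chain aminotransferase, 3-isopropylmalate dehydrogenase, quinolinate phosphoribosyltransferase and methylcitrate dehydratase are named outside it. Alternatives were RLE scaling, library totals, no count filter, DESeq2 1.42.0, limma 3.58.1 on log2(FPKM + 1) or log2(FPKM + 0.1) with a mean FPKM of at least 1 or no filter, a replicate block, and leaving out each library.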

Additional observations from a re-analysis of the deposited data

How the results depend on the processing

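Of the 21 members called, 16 kept their call and direction in all 12 alternatives, and no called member changed sign in any of them. RLE scaling and dropping the count filter lost and added no member call; DESeq2 added 2. Members called higher went from 4 to 12 with library totals and in the limma fits on log2(FPKM + 1), log2(FPKM + 0.1) and log2(FPKM + 1) without a filter, while 15, 15, 15 and 14 were lower. Over all genes the higher calls were then 2419, 2376, 2374 and 2364 (35% to 38% of genes, beside 25.9% with TMM factors), and the lower calls 1066, 1056, 1052 and 1071, against 1635. The higher share of the members, 30.8% to 33.3%, was below that of all genes in each of these fits. Taking every gene with 1 of the 5 terms, 70 were tested. Of these, 32 (45.7%) were lower and 8 (11.4%) higher, beside 25.5% and 25.9% of all genes tested. Leaving out 1 library at a time gave 14 to 20 lower and 4 to 6 higher members, and over all genes 860 to 1587 lower and 810 to 1534 higher; the lowest counts came without a WLH library, where the lone WLH library is assumed to vary like F19. The labels do not say that replicate numbers pair the libraries, and the deviations of same-numbered libraries had a correlation of -0.09 across genes. With the replicate block in edgeR, 20 members (52.6%) were lower and 6 (15.8%) higher, beside 26% and 26.5% of all genes. All 21 calls were kept, and BKA90DRAFT_133946 (adjusted p = 0.00908), BKA90DRAFT_134868 (0.0368), BKA90DRAFT_158918 (0.0084), BKA90DRAFT_110437 (0.0442) and BKA90DRAFT_141483 (0.00968) were added. With 2 libraries a strain, depth limits members near 1 CPM.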

Other observations

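The following genes were looked up after the values were seen. BKA90DRAFT_136753, described as a carboxyl transferase with the annotation of leucine catabolism and methylcrotonoyl-CoA carboxylase activity, has no ortholog number and so was not among the members. It lies on ML755997.1 at 19602 to 21398 on the minus strand, 337 bases from isovaleryl-CoA dehydrogenase BKA90DRAFT_136754 on the plus strand, so the genes of consecutive leucine steps start back to back. It stood at 42.1 and 48.3 CPM in F19 and at 74.4 and 94.4 in WLH, a log2 fold change of -0.90 ± 0.16 (SE; edgeR, adjusted p = 0.00366), beside -0.84 for its neighbour.

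Amidase BKA90DRAFT_112643 lies between the catalase BKA90DRAFT_20454, 641 bases away, and BKA90DRAFT_137930, a citrate synthase-like gene 144 bases away. All 3 were lower in F19, with log2 fold changes of -1.29 for the amidase, -2.31 for the catalase and -1.03 for the citrate synthase-like gene. Of all genes tested, 25.5% were lower. The group was picked after the values were seen, and some other members had neighbours that changed in the opposite direction. Whether neighbouring genes changed together was not tested.

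By gene ontology terms for catabolism of the branched-chain and aromatic amino acids, lysine or kynurenine, 17 genes were found. Of them 12 (70.6%) were lower, 0 higher and 5 did not pass, beside 25.5% lower and 25.9% higher of all genes tested. The lower genes include members already counted above. They also include the tyrosine ring enzymes BKA90DRAFT_135911 (K00457) and BKA90DRAFT_137911 (K00451), which the rule left out. Of these 17, 4 hold none of the 5 pathway terms, and 2 of the 4 were lower.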
